A study of Mus musculus with 18 samples.

Results

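The BCL2 family survival and death genes are a set of 9 mouse genes given by name: Bcl2, Bcl2l1, Bcl2l2, Mcl1, Bax, Bak1, Bad, Bid and Bnip3. Every probe set of the mouse heart arrays whose platform annotation gives one of these symbols, and no other symbol, was taken. This found 12 probe sets of 8 genes among the 12422 probe sets that are not controls and the 8251 genes with a probe set of a single symbol. Bax was not analysed here, because no probe set carried it as its single symbol. Bcl2 had 3 probe sets, Bcl2l1 and Bad had 2 each, and the other 5 genes had 1 each.

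The study measured total RNA of mouse heart on Affymetrix U74Av2 oligonucleotide arrays in FVB mice and in mice carrying a tumour necrosis factor alpha transgene, TNFTG, which the labels call cardiac-specific. There were 6 TNFTG arrays of 3 weeks (3 female, 3 male), 3 TNFTG male arrays of 13 weeks, 3 TNFTG female arrays of 40 weeks and 5 distinct FVB arrays of 3 weeks (2 female, 3 male). The promoter that drives the transgene, the number of transgenic lines and the strain background of the TNFTG mice were not given in the sources used here, and no FVB heart older than 3 weeks was analysed here. The labels do not say that the samples of a group were separate animals, so each p-value covers the spread among the arrays alone, and that spread may be technical.

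BCL2 family proteins set the threshold for the mitochondrial route to cell death. BCL2, BCL-XL (encoded by Bcl2l1), BCL-W (Bcl2l2) and MCL1 hold the outer mitochondrial membrane closed by binding the pore-forming members BAX and BAK (Bak1), while BH3-only proteins such as BAD and BID release or activate the pore formers. BID is cut by caspase 8 below the TNF and Fas receptors and so joins death receptor signalling to mitochondria. BNIP3 is a hypoxia-inducible protein of the outer mitochondrial membrane that also serves as a receptor for mitophagy, the removal of mitochondria by autophagy. Cardiomyocytes are rich in mitochondria, and in mice the loss of Mcl1 from cardiomyocytes leads to cardiomyopathy.

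The array deposited as FVB female replicates 1 and 2 holds the same value in every probe set and was counted once. It stood apart, with a Spearman correlation of 0.775 to 0.856 with the other 16 arrays, which correlated at 0.891 to 0.977 among themselves, and with 7.47% of probe sets at the floor against 23.8% to 28.4% on the others. The female transcript Xist had signals of 1380.6 and 2705.7 on FVB male replicates 1 and 2 and of 5.9 on replicate 3, while the Y-linked gene Eif2s3y had 298.7, 67.4 and 544.9 and Uty 129.7, 16.9 and 228.0. Replicate 2 thus goes against its labelled sex, and replicate 1 carried both Xist and Y-linked signal. These arrays and the repeated one are called the 3 doubted FVB arrays. Tnf, the gene of the transgene, ran at 5475.5 to 11342.8 on the TNFTG arrays of 3 weeks, at 7506.9 to 10841.7 at 13 weeks, at 8773.5 to 12082.3 at 40 weeks and at 12.5 to 124.9 on the FVB arrays. Cardiomyocyte markers were present on all arrays, which fits the labelled tissue. Their summed signal was 108215 to 214902 on TNFTG arrays of 3 weeks and 207730 to 337473 on FVB arrays. The ratio of the 3' to the 5' beta-actin probe set, a sign of RNA quality, was 1.12 to 1.44 on TNFTG arrays of 3 weeks, 1.23 to 1.48 at 13 weeks, 1.39 to 1.77 at 40 weeks and 1.29 to 1.97 on FVB arrays.

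At 3 weeks the TNFTG hearts had higher Mcl1, Bid and Bak1 and lower Bcl2l1, Bnip3 and 1 of the 2 Bad probe sets than FVB hearts. Signals below 44.9, the 25th percentile of all values, were set to that floor, and limma was run on log2 signal over the 7453 probe sets with the highest mean. Of the 10 family probe sets tested, 3 were higher, 3 were lower and 4 were not called at a Benjamini-Hochberg adjusted p of 0.05. Which probe sets were called depended on single FVB arrays. Without the repeated FVB array, which leaves 1 FVB female array, Bak1 moved from 0.50 to 0.40 on the log2 scale. Bad 161500_i_at moved from -0.88 to -0.66 and Bcl2 98869_g_at from 0.12 to 0.63. Leaving out FVB female replicate 3 makes the repeated array the only FVB female array. Bcl2 98870_at, highest on that array, then moved from -0.34 to -0.51, and Bcl2l2, also highest there, from -0.39 to -0.59. In this comparison 46.6% of all tested probe sets were called, 24.7% higher and 21.9% lower, so calls in both directions were common throughout the arrays. The median log2 difference was -0.19 over the 10 family probe sets and -0.01 over all tested.

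**Figure D1:**
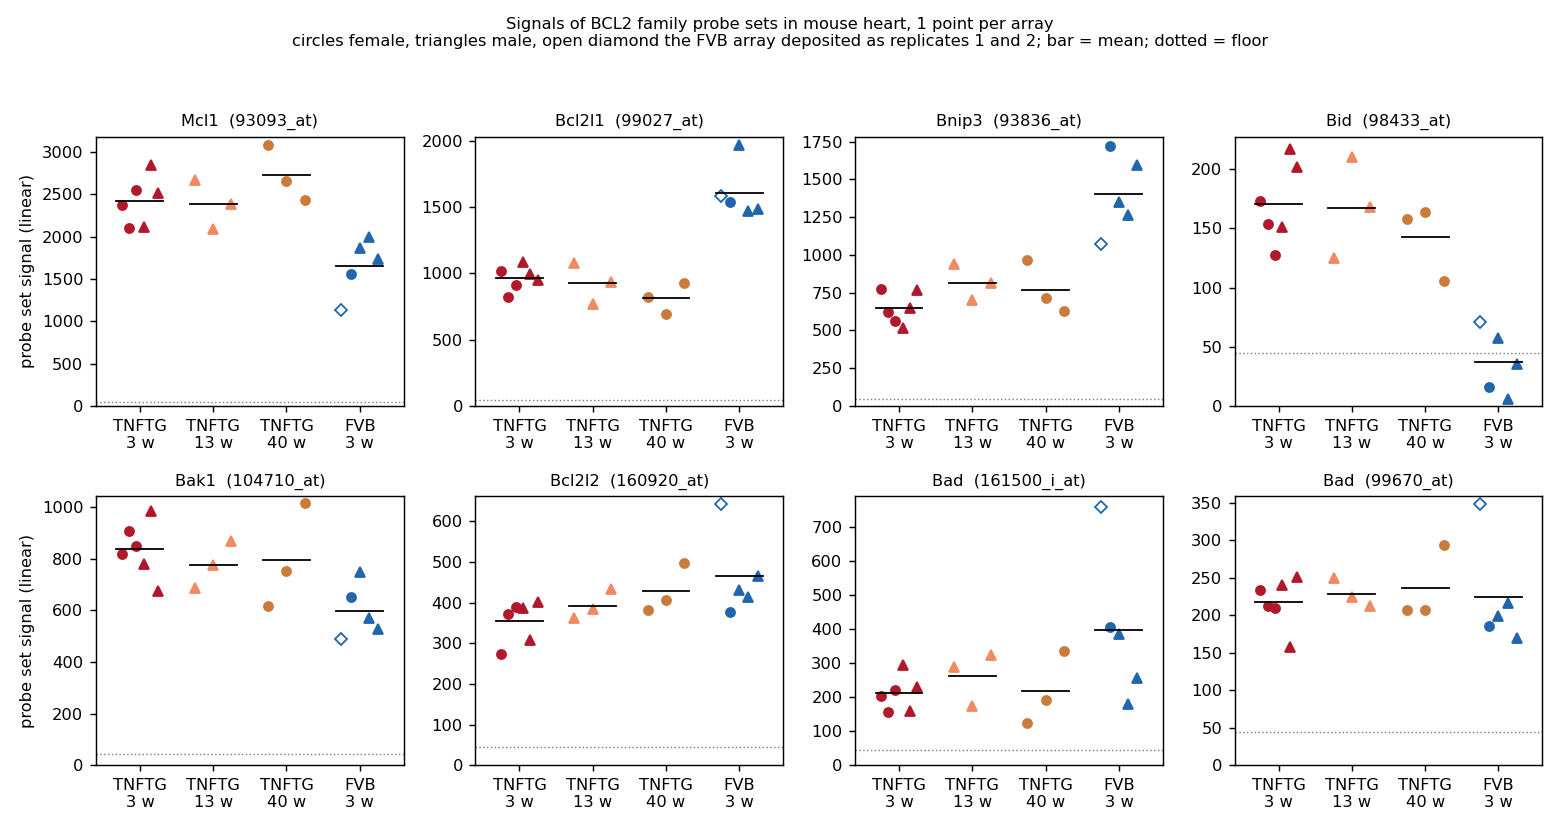
Signal (linear scale) of 8 BCL2 family probe sets on each array, for TNFTG hearts of 3, 13 and 40 weeks and FVB hearts of 3 weeks. Circles are arrays labelled female, triangles arrays labelled male, the open diamond is the FVB array deposited as replicates 1 and 2, bars are means and the dotted line is the floor of 44.9. For Mcl1 and Bid all 12 TNFTG arrays lie above all 5 FVB arrays, and for Bcl2l1 and Bnip3 all lie below.

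Among the survival genes, Mcl1 was higher in TNFTG hearts. Mcl1 encodes a short-lived guardian of the outer mitochondrial membrane. Its signal had a lowest value of 2105.1, a median of 2448.2 and a highest value of 2840.3 on the 6 TNFTG arrays of 3 weeks, and it was 2663.5, 2084.1 and 2389.9 at 13 weeks and 3078.9, 2652.9 and 2432.3 at 40 weeks. On the FVB arrays it was 1128.2, 1557.0, 1862.7, 1989.4 and 1737.9. The lowest TNFTG array of any age was above the highest FVB array. The mean was 2418 ± 283 in TNFTG hearts of 3 weeks (SD, n = 6) and 1655 ± 335 in FVB hearts (SD, n = 5), a log2 difference of 0.61 ± 0.14 (SE; limma adjusted p = 0.00176), or 1.53-fold. By mean, Mcl1 ran at 2418 at 3 weeks, 2379 at 13 weeks and 2721 at 40 weeks in TNFTG hearts and at 1655 in FVB hearts, and the 3 TNFTG ages overlapped one another.

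Bcl2l1 went the other way. Its probe set 99027_at had a lowest value of 825.1, a median of 975 and a highest value of 1085.7 on TNFTG arrays of 3 weeks, and signals of 1078.2, 766.1 and 937.8 at 13 weeks and of 820.1, 697.2 and 931.2 at 40 weeks. The FVB arrays gave 1583.9, 1538.7, 1966.4, 1471.9 and 1484.9. No TNFTG array of any age reached the lowest FVB array. The mean was 966 ± 91 in TNFTG hearts of 3 weeks (SD, n = 6) and 1609 ± 205 in FVB hearts (SD, n = 5), a log2 difference of -0.73 ± 0.14 (SE; limma adjusted p = 0.000477). The second Bcl2l1 probe set, 99026_at, lay below the floor on all 12 TNFTG arrays and on 4 of the 5 FVB arrays, and was not tested. Which of the splice forms BCL-XL and BCL-XS either probe set reads was not examined here.

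Since Mcl1 and Bcl2l1 moved in opposite directions, the ratio of their signals on the same array changed more than either. This ratio averaged 2.52 ± 0.337 in TNFTG hearts of 3 weeks (SD, n = 6) and 1.04 ± 0.240 in FVB hearts (SD, n = 5). It ran at 1.95 to 2.84 on TNFTG arrays of 3 weeks, 2.47 to 2.72 at 13 weeks, 2.61 to 3.81 at 40 weeks and 0.712 to 1.35 on FVB arrays. Signals of different probe sets are not on a common scale, so the ratio shows unequal change and says nothing of which transcript was more abundant.

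**Figure D2:**
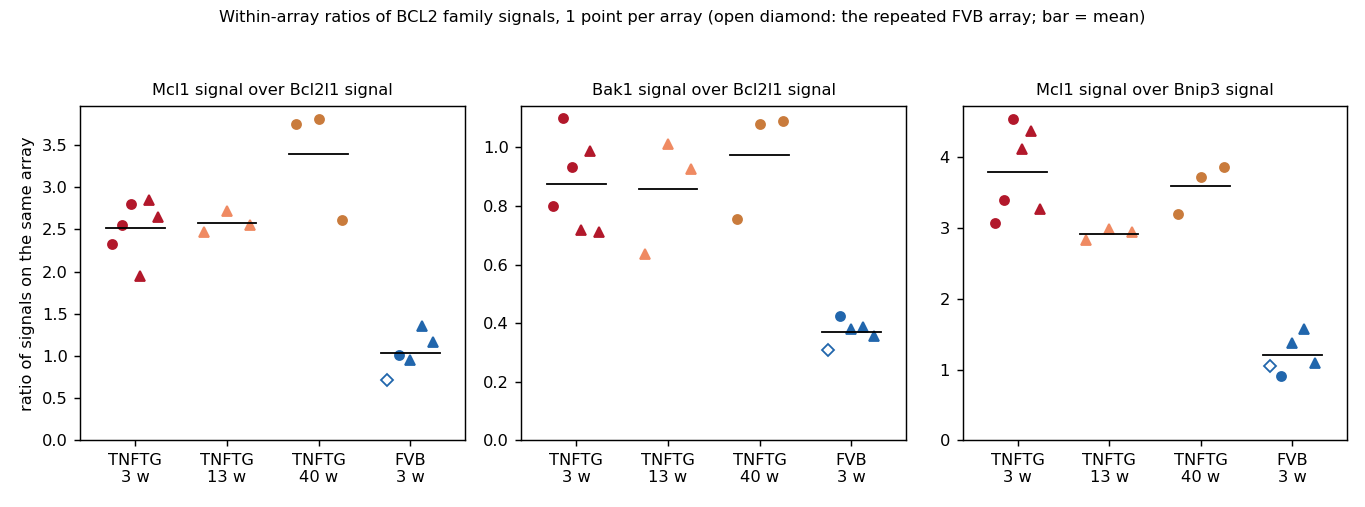
Ratio of 2 BCL2 family signals on the same array (vertical axis, no unit) for TNFTG hearts of 3, 13 and 40 weeks and FVB hearts of 3 weeks, 1 point per array, with circles for arrays labelled female, triangles for arrays labelled male, the open diamond for the repeated FVB array and bars for means. In all 3 panels every TNFTG array lies above every FVB array: Mcl1 over Bcl2l1 from 1.95 against at most 1.35, Bak1 over Bcl2l1 from 0.637 against at most 0.424, and Mcl1 over Bnip3 from 2.83 against at most 1.57. For the Mcl1 ratios this adds no evidence, since each signal alone already lay apart, in opposite directions. Bak1 signals overlapped between the groups, while those of Bcl2l1 did not.

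Bcl2l2, which encodes BCL-W, had a lowest value of 274.1, a median of 379 and a highest value of 402.4 on TNFTG arrays of 3 weeks, and signals of 362.3, 383.5 and 432.0 at 13 weeks and of 381.3, 405.1 and 497.3 at 40 weeks. FVB signals were 642.2, 375.9, 429.8, 413.8 and 465.5. The groups overlapped, and the highest FVB value came from the repeated array. The log2 difference of -0.39 ± 0.16 (SE; 95% interval -0.73 to -0.06) did not pass the adjusted test (limma adjusted p = 0.0522). Without the repeated array it was -0.20 (limma adjusted p = 0.312), and without the 3 doubted FVB arrays -0.25. It passed without FVB female replicate 3 (-0.59, limma adjusted p = 0.00502) and, narrowly, without TNFTG female replicate 3 of 3 weeks (-0.44, limma adjusted p = 0.0490).

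The 3 probe sets of Bcl2, the founding survival gene of the family, did not give a single answer. Probe set 98868_at had a lowest value of 70.6, a median of 123 and a highest value of 154.5 on TNFTG arrays of 3 weeks, and read 131.4, 115.6 and 108.0 at 13 weeks and 103.6, 173.3 and 150.3 at 40 weeks. On FVB arrays it read 32.1, 47.5, 46.9, 32.4 and 28.0, with 3 of the 5 below the floor. All 12 TNFTG arrays were above all 5 FVB arrays. This probe set was too dim on average to be among those tested, and in the fit without a filter on low signal, where 31.6% of all probe sets were called, its log2 difference was 1.33 ± 0.19 (SE; limma adjusted p = 0.000250), a lower limit because of the floor.

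Probe set 98869_g_at ran at 298.0 to 417.1 on TNFTG arrays of 3 weeks, 342.9 to 398.0 at 13 weeks and 322.7 to 487.7 at 40 weeks. On the FVB arrays it was 761.0, 185.4, 316.3, 276.6 and 240.8, with the 761.0 from the repeated array. The fitted log2 difference stood at 0.12 ± 0.26 (SE; limma adjusted p = 0.724). Without the repeated array it was 0.63 ± 0.16 and called (limma adjusted p = 0.00526), and without that array and FVB male replicates 1 and 2 it was 0.73 (adjusted p = 0.00853). It was -0.38 and not called without FVB female replicate 3 (limma adjusted p = 0.0562), so both the call and the sign turned on single FVB arrays.

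Probe set 98870_at, the brightest of the Bcl2 probe sets, averaged 457 ± 86.7 in TNFTG hearts of 3 weeks (SD, n = 6) and 570 ± 148 in FVB hearts (SD, n = 5), with a highest FVB value of 804.6 on the repeated array. At 13 weeks it ran at 467.8 to 550.6 and at 40 weeks at 405.2 to 443.8. The groups of 3 weeks overlapped, and the log2 difference of -0.34 ± 0.17 was not called (SE; limma adjusted p = 0.117). It was -0.17 without the repeated array (limma adjusted p = 0.471), -0.21 without TNFTG male replicate 2 of 3 weeks and -0.093 without the 3 doubted FVB arrays, and it was called without FVB female replicate 3 (-0.51, limma adjusted p = 0.0268). No direction is given here for Bcl2 as a gene.

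**Figure D3:**
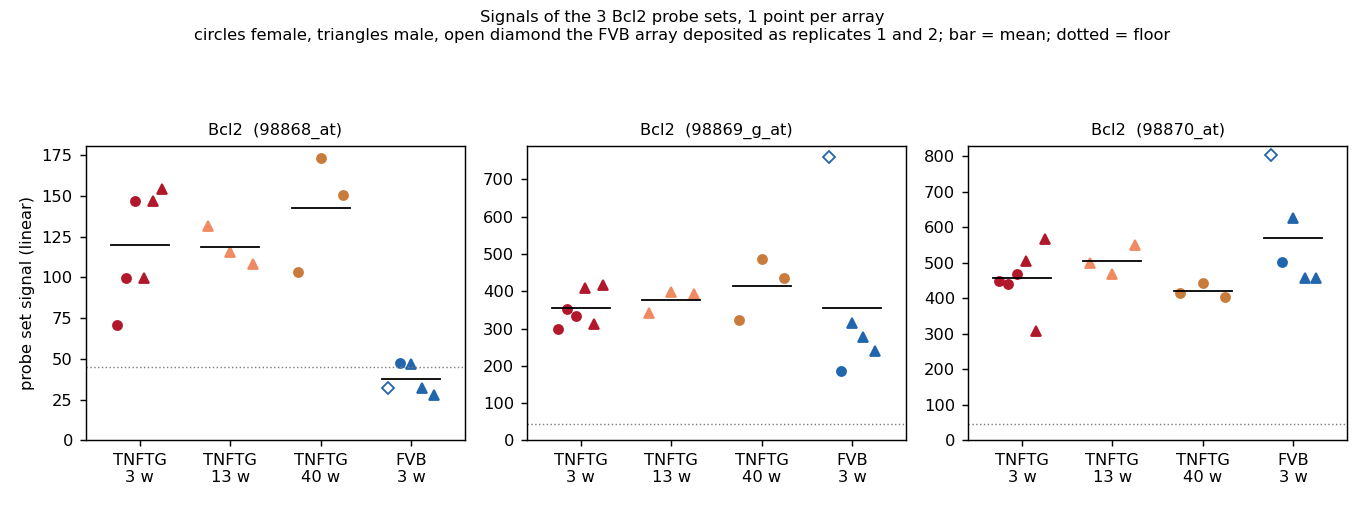
Signal (linear scale) of the 3 Bcl2 probe sets on each array, for TNFTG hearts of 3, 13 and 40 weeks and FVB hearts of 3 weeks, with circles for arrays labelled female, triangles for arrays labelled male, the open diamond for the repeated FVB array, bars for means and the dotted line for the floor of 44.9. Only for 98868_at do the TNFTG arrays (70.6 to 173.3) lie above all FVB arrays (28.0 to 47.5); for the other two the repeated FVB array is the highest of all, at 761.0 and 804.6.

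Among the death genes, Bid had the largest difference of the family. Bid encodes the BH3-only protein that caspase 8 cleaves. Its signal had a lowest value of 127.8, a median of 163 and a highest value of 216.7 on TNFTG arrays of 3 weeks, and it was 124.6, 209.9 and 168.1 at 13 weeks and 157.8, 163.7 and 105.8 at 40 weeks. FVB arrays gave 71.2, 16.0, 57.5, 6.2 and 35.8. Every TNFTG array of every age was above every FVB array, and 3 of the 5 FVB arrays were below the floor. Bid thus differed by 1.68 ± 0.19 on the log2 scale (SE; limma adjusted p = 2.86e-06), which the floor makes a lower limit. Bid was bright enough to be tested only through the TNFTG arrays. Its mean log2 signal was 7.39 on those of 3 weeks and 5.69 on FVB arrays. The filter thus favoured a call, although Bid was also called in the fit without a filter.

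Bak1, the gene of the pore-forming protein BAK, had a lowest value of 676.6, a median of 834.5 and a highest value of 985.9 on TNFTG arrays of 3 weeks, and read 686.4, 775.6 and 867.6 at 13 weeks and 619.0, 752.4 and 1015.4 at 40 weeks. FVB arrays read 488.8, 652.2, 748.0, 571.4 and 527.8. The groups overlapped, since FVB male replicate 1 was above the lowest TNFTG array of 3 weeks. The fitted log2 difference stood at 0.50 ± 0.16 (SE; limma adjusted p = 0.0185). This call was lost without the repeated FVB array (0.40, limma adjusted p = 0.0870), and without that array and FVB male replicates 1 and 2 together (0.50, adjusted p = 0.0727).

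Bad encodes a BH3-only protein that growth factor kinases inactivate by phosphorylation, and its 2 probe sets differed. Probe set 161500_i_at had a lowest value of 157.5, a median of 213 and a highest value of 296.0 on TNFTG arrays of 3 weeks, and read 290.8, 174.1 and 325.1 at 13 weeks and 126.1, 192.4 and 335.3 at 40 weeks. The 5 FVB signals were 759.8, 407.8, 386.9, 179.9 and 256.0. The groups overlapped, and the FVB arrays spread over a wide range with the repeated array on top. The fitted log2 difference stood at -0.88 ± 0.28 (SE; limma adjusted p = 0.0183), and without the repeated array it was -0.66 and no longer called (limma adjusted p = 0.106). Probe set 99670_at averaged 218 ± 33.3 in TNFTG hearts of 3 weeks (SD, n = 6) and 224 ± 71.8 in FVB hearts (SD, n = 5), a log2 difference of -0.05 with a 95% interval of -0.43 to 0.33. It ran at 212.0 to 249.5 at 13 weeks and at 207.2 to 294.0 at 40 weeks.

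Bnip3 fell most among the family. Its signal had a lowest value of 513.7, a median of 635 and a highest value of 773.8 on TNFTG arrays of 3 weeks, and it was 940.0, 698.8 and 812.4 at 13 weeks and 964.2, 713.3 and 629.7 at 40 weeks. On FVB arrays it was 1074.7, 1720.7, 1352.0, 1263.9 and 1596.5. The highest TNFTG array of any age was below the lowest FVB array. The mean was 648 ± 106 in TNFTG hearts of 3 weeks (SD, n = 6) and 1402 ± 259 in FVB hearts (SD, n = 5), a log2 difference of -1.10 ± 0.17 (SE; limma adjusted p = 9.31e-05), so that TNFTG hearts had 2.15-fold less.

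Over the 10 tested family probe sets, 4 did not overlap between TNFTG arrays of 3 weeks and FVB arrays, which are those of Mcl1, Bid, Bcl2l1 and Bnip3, with or without the repeated array. Bid was tested only through its TNFTG signal, which favours its place among them. Among all tested probe sets 23.6% did not overlap. The same 4 did not overlap when all 12 TNFTG arrays were set against the FVB arrays, where the share among all tested was 15.5%.

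**Figure D4:**
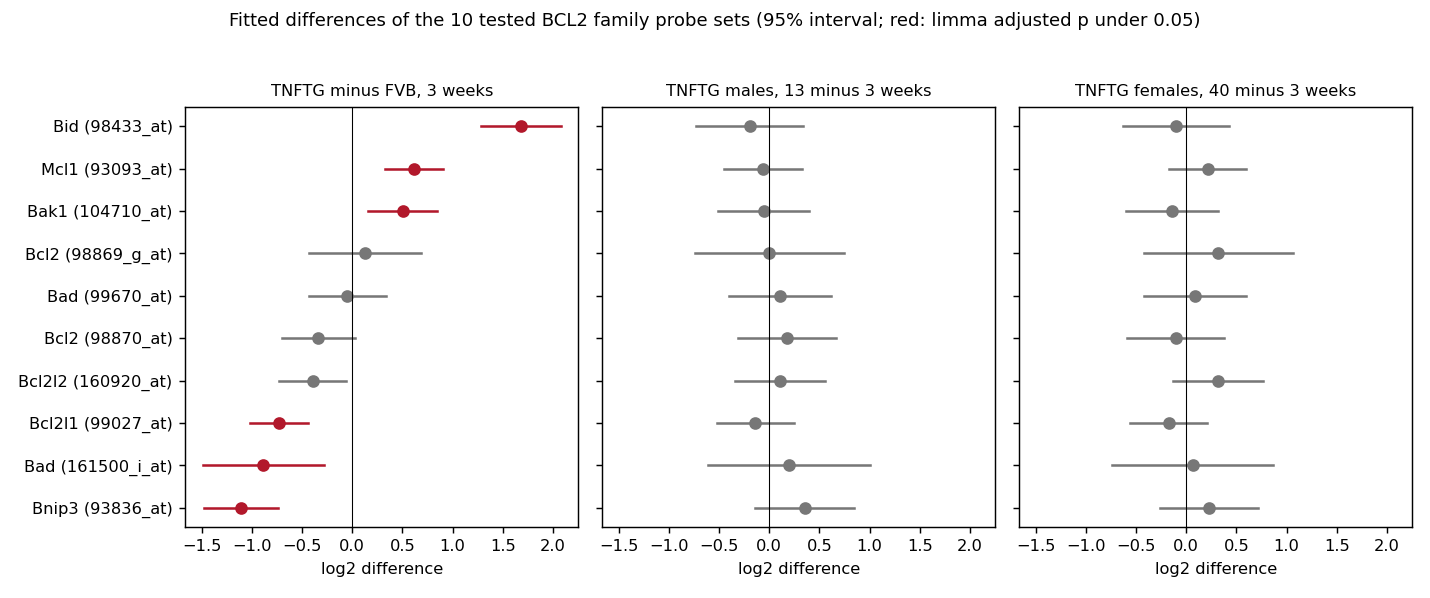
Log2 difference (horizontal axis) of the 10 tested BCL2 family probe sets, for TNFTG minus FVB hearts at 3 weeks, TNFTG males of 13 minus 3 weeks and TNFTG females of 40 minus 3 weeks; points are limma estimates, bars 95% intervals, and red marks an adjusted p under 0.05. In the first panel 6 probe sets are red, from -1.10 for Bnip3 to 1.68 for Bid, and in the age panels none is.

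The RNA came from heart tissue, where fewer cells of a type and less RNA per cell cannot be told apart. All 10 cardiomyocyte markers tested fell in TNFTG hearts of 3 weeks, with a median log2 difference of -1.02, next to -1.10 for Bnip3 and -0.73 for Bcl2l1. With quantile normalisation 6 of the 10 fell, with a median of -0.43, and Bnip3 stood at -1.18. Of 13 macrophage markers tested 11 rose and 1 fell, and the summed signal of the 15 on the array was 41812 to 55951 on TNFTG arrays of 3 weeks, 39819 to 54079 at 13 weeks, 39476 to 45064 at 40 weeks and 4962 to 7129 on FVB arrays. All 6 tested markers of T and NK cells rose, and the sum over 12 was 2124 to 4484 on TNFTG arrays of 3 weeks and 716 to 1651 on FVB arrays. Among all tested probe sets 24.7% were higher and 21.9% lower. Markers dim on FVB arrays could pass the filter only through the TNFTG arrays, so these counts are not a fair match for those shares. Without the filter the median log2 difference was 2.30 over 15 macrophage and 1.43 over 12 T and NK cell markers, beside 2.85 and 1.95 over those tested. B cell markers rose in 2 of 5 and neutrophil markers in 3 of 5, with 1 neutrophil marker lower, while 2 of 8 endothelial markers fell, and of 6 fibroblast markers 2 rose and 1 fell. No marker of the macrophage, lymphocyte, cardiomyocyte, endothelial or fibroblast lists was at the floor on all arrays of any TNFTG group, while 3 of the macrophage and 5 of the T and NK cell markers were at the floor on all 4 FVB arrays other than the repeated one. The part of these cell types in the changes of the family genes was not tested.

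The 5' flanks of the 3 genes that were called under every setting tried, namely Bnip3, Bcl2l1 and Mcl1, are shown so that their sequence can be read beside the changes. They are the 250 bases before the annotated start, 5′ to 3′ on the gene's strand, from RefSeq on GRCm38.p6. Capitals mark a match on either strand to ACGTG in Bnip3 and to the NF-kB consensus in Bcl2l1. ACGTG was the only form of the hypoxia response element core that was searched, so other forms are left unmarked. All 9 genes were found in the RefSeq promoter table, with 12 windows of 300 bases. The Bnip3 flank lies at chr7:138909507-138909756 on the minus strand, the Bcl2l1 flank, 1 of 3 listed for that gene, at chr2:152830718-152830967 on the minus strand, and the Mcl1 flank at chr3:95658471-95658720 on the plus strand. This Bcl2l1 flank was picked because its window held a match to a motif searched, and the other Bcl2l1 windows held none.
Bnip3: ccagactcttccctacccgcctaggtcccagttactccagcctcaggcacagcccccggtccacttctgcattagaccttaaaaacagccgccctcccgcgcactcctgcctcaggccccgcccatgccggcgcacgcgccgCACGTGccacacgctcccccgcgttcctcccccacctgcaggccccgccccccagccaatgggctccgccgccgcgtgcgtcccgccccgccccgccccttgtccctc
Bcl2l1: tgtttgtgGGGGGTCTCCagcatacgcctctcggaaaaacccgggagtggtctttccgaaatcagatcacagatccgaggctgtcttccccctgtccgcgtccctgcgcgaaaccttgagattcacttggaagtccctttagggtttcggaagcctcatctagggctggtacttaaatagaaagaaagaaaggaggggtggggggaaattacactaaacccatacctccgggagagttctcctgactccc
Mcl1: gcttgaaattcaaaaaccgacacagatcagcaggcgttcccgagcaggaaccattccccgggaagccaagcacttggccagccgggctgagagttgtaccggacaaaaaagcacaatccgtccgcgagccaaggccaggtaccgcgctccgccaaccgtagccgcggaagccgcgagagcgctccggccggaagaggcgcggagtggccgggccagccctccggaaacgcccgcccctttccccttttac

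In the Bnip3 flank ACGTG was read on both strands in 2 overlapping matches that begin 108 bases before the start. It was found in 2 of the 12 windows of the family, those of Bnip3 and Bax, and in 19.6% of all 32851 windows of that length. The match to the NF-kB consensus in the Bcl2l1 flank begins 242 bases before the start, and such a match was found in 1 of the 12 windows of the family and in 8.46% of all windows. The Mcl1 flank held neither motif. A match describes the letters of the window and is neither a bound site nor a cause of the change in RNA.

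The age comparisons ask whether the family differed further in older TNFTG hearts. In males of 13 weeks against males of 3 weeks, 0 of the 10 family probe sets were called by limma and 0 had an unadjusted p under 0.05. The log2 differences lay between -0.19 and 0.35, and the smallest adjusted p was 0.789. Among all tested probe sets 39 (0.523%) were called and 642 had an unadjusted p under 0.05. In females of 40 weeks against females of 3 weeks, 0 of the 10 were called and 0 had an unadjusted p under 0.05, with log2 differences between -0.18 and 0.32 and a smallest adjusted p of 0.760, while 50 (0.671%) of all tested probe sets were called and 678 had an unadjusted p under 0.05.

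Bnip3 had the highest of the family's differences at 13 weeks. Its signal was 940.0, 698.8 and 812.4 in TNFTG males of 13 weeks, against 513.7, 649.9 and 769.7 in TNFTG males of 3 weeks. The groups overlapped, and the log2 difference of 0.35 had a 95% interval of -0.14 to 0.84 (limma adjusted p = 0.789). At 40 weeks the signals were 964.2, 713.3 and 629.7 in TNFTG females, against 773.8, 619.2 and 563.3 in TNFTG females of 3 weeks, a log2 difference of 0.23 with an interval of -0.26 to 0.72.

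For Mcl1 the interval of the log2 difference was -0.45 to 0.32 at 13 weeks and -0.17 to 0.60 at 40 weeks. For Bcl2l1 it was -0.52 to 0.25 at 13 weeks and -0.56 to 0.21 at 40 weeks, and for Bid -0.72 to 0.33 and -0.63 to 0.43. With 3 arrays in each group, these intervals do not show that the levels were alike. The 2 later ages differ in sex as well as in age and were not set against each other.

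Whether the transgene effect at 3 weeks differed between the sexes was tested as its own contrast. None of the 10 family probe sets was called by limma, nor was any of the 7453 probe sets tested (0%), while 1229 had an unadjusted p under 0.05. The family's 1 probe set below that unadjusted level was Bad 161500_i_at, with a female minus male log2 difference of -1.30 and a limma adjusted p of 0.274. This contrast rests on 2 FVB female arrays, 1 of them the repeated array, and on 3 FVB male arrays, of which replicate 2 goes against its labelled sex and replicate 1 carried both Xist and Y-linked signal.

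Of 20 other genes of the BCL2 family and its binding partners, 9 had a probe set and 8 were tested at 3 weeks, with 1 higher, 3 lower and 4 not called. The median log2 difference was -0.10, and 24.7% of all tested probe sets were higher and 21.9% lower. Bcl2l11, the gene of the BH3-only protein BIM, averaged 673 ± 73.0 in TNFTG hearts (SD, n = 6) and 412 ± 51.1 in FVB hearts (SD, n = 5), a log2 difference of 0.69 ± 0.14 (SE; limma adjusted p = 0.000716). Another of its probe sets, 99418_at, was called in the opposite direction at -1.15, so the gene's direction is uncertain. The genes that fell were Bnip1 at -0.56, Bcl2l13, a mitophagy receptor, at -0.37, and Bcl2l10 at -0.73 with an adjusted p of 0.0485. Bok, a BAX-like gene, had a log2 difference of 0.45 (adjusted p = 0.0663), Bnip2 of 0.37, Becn1, the autophagy gene Beclin 1, of 0.05, and Bik of -0.26, and none of these was called, although another Bnip2 probe set was called at -1.12. Hrk was too dim to be tested. Without the repeated FVB array 1 was higher and 1 lower, and only 2 of the 8 were called also without FVB male replicate 3, without TNFTG female replicate 3 or any 1 of the TNFTG males of 3 weeks, or without TNFTG male replicate 2 of 13 weeks.

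Most of the tested genes upstream of BID rose. Of 15 genes of the death receptor pathway 13 had a probe set and 10 were tested, with 7 higher, 0 lower and 3 not called, and a median log2 difference of 1.10, where 24.7% of all probe sets were higher. The 7 include Tnf itself, the transgene, whose rise was set by the design and which stood at 7.30 as a lower limit. Tnf and Traf1, each at the floor on 4 of 5 FVB arrays, were bright enough to be tested only through the TNFTG arrays. The count and the median of this list are therefore not a fair match for the share over all probe sets. Traf1, an adaptor of TNF receptor complexes, stood at 2.95, also a lower limit with 4 of 5 FVB arrays at the floor, and Tnfrsf1b, the second TNF receptor, averaged 1025 ± 134 in TNFTG hearts (SD, n = 6) and 269 ± 33.2 in FVB hearts (SD, n = 5), a log2 difference of 1.93. Casp8, the protease that cuts BID, averaged 255 ± 63.5 in TNFTG hearts and 101 ± 24.1 in FVB hearts (SD, n = 6 and 5), a log2 difference of 1.32 ± 0.20 (SE; limma adjusted p = 6.93e-05). The death receptor gene Fas averaged 181 ± 39.0 in TNFTG hearts (SD, n = 6) and 79.3 ± 37.7 in FVB hearts (SD, n = 5), with 1 FVB array at the floor, a fitted log2 difference of 1.22. Cflar, whose product FLIP blocks caspase 8, had one of 0.56 (limma adjusted p = 0.0375). Tnfrsf1a, the first TNF receptor, had a log2 difference of 0.98, while another of its probe sets was called at -1.28. The adaptors Tradd (0.44), Fadd (-0.04) and Traf2 (0.05) were not called. Leaving out the repeated FVB array gave 7 higher, and leaving out FVB male replicates 1 and 2 as well gave 8.

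**Figure D5:**
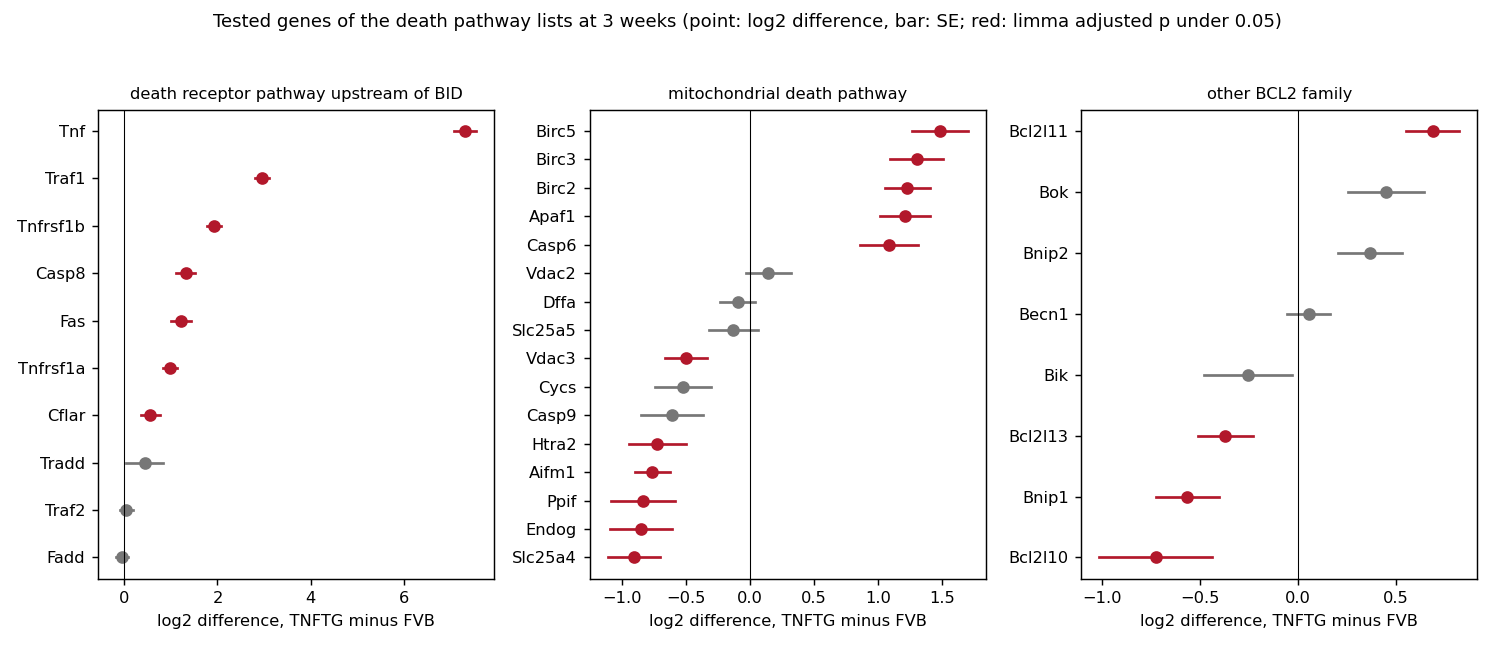
Log2 difference between TNFTG and FVB hearts at 3 weeks (horizontal axis) for each tested gene of 3 lists, the death receptor pathway upstream of BID, the mitochondrial death pathway and the other BCL2 family genes; points are limma estimates, bars standard errors, and red marks an adjusted p under 0.05. The death receptor list has 7 red points, all above 0 and among them the transgene Tnf itself, while the mitochondrial list has 5 above and 6 below 0.

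Genes of the mitochondrial death pathway were called in both directions, as were probe sets throughout the arrays (24.7% higher, 21.9% lower). Of 22 genes 20 had a probe set and 16 were tested, with 5 higher, 6 lower and 5 not called and a median log2 difference of -0.31. The inhibitors of apoptosis Birc2, Birc3 and Birc5, the last known also for its role in cell division, stood at 1.23, 1.30 and 1.48. Another Birc2 probe set stood at 0.09 and was not called (limma adjusted p = 0.796). Apaf1, the scaffold of the apoptosome, averaged 496 ± 102 in TNFTG hearts (SD, n = 6) and 218 ± 52.8 in FVB hearts (SD, n = 5), a log2 difference of 1.21 ± 0.20 (SE; limma adjusted p = 0.000123). The fifth that rose was Casp6, an effector caspase, which averaged 151 ± 30.9 in TNFTG hearts (SD, n = 6) and 81.1 ± 47.5 in FVB hearts (SD, n = 5), with 1 FVB array at the floor. The 6 that fell encode mitochondrial proteins of the inner membrane, the matrix, the space between the membranes or the outer membrane: Aifm1 at -0.76, Slc25a4 at -0.91, Endog at -0.85, Ppif at -0.83, Htra2 at -0.72 and Vdac3 at -0.50, with another Htra2 probe set called at 1.30. Cycs, the gene of cytochrome c, had a log2 difference of -0.52 (limma adjusted p = 0.0588) and was not called. Xiap, also an inhibitor of apoptosis, was too dim to be tested. In the fit without a filter, where 31.6% of all probe sets were called, its brightest probe set went the other way at -1.03 (limma adjusted p = 0.00100). Without the repeated FVB array 5 were higher and 4 lower, and without all 3 doubted FVB arrays 5 and 3.

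Of 27 genes of regulators and partners of BCL2 proteins 18 were tested, with 2 higher, 7 lower and 9 not called, and a median of -0.21. Among all tested probe sets 46.6% were called, 24.7% higher and 21.9% lower, so calls in this list were about as common as throughout the arrays. Hk2, a hexokinase that binds the outer mitochondrial membrane, averaged 2096 ± 224 in TNFTG hearts (SD, n = 6) and 4052 ± 598 in FVB hearts (SD, n = 5), a log2 difference of -0.96 ± 0.12 (SE; limma adjusted p = 8.27e-06). Bag3, a cochaperone of muscle named for its binding to BCL2, stood at -0.95, the transcription factor gene Foxo3 at -0.92, and Prkaca, the catalytic subunit of protein kinase A, at -0.88. The genes called higher were Ywhaq, a 14-3-3 protein, and Jun, both at 0.70. Other Ywhaq probe sets stood at -0.50 and 0.24 and were not called, so the direction of Ywhaq is uncertain.

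Bnip3 was read beside hypoxia-induced and mitophagy genes. For both lists the share over all tested probe sets was 24.7% higher and 21.9% lower. Of 15 tested genes of the hypoxia list 3 were higher, 7 lower and 5 not called, with a median of -0.44. Hif1a, the gene of the hypoxia-stabilised transcription factor subunit, stood at 1.23 in both of its probe sets (SE 0.13 and 0.12), and Slc2a1, the glucose transporter GLUT1, at 1.73. Egln1, an oxygen-sensing prolyl hydroxylase, stood at -1.13, and the glycolytic genes Aldoa and Ldha at -0.81 and -0.47. Of 10 tested mitophagy genes 0 were higher and 3 were lower, Map1lc3a at -1.42, Ulk1 at -0.74 and Map1lc3b at -0.56, with 7 not called and a median of -0.29. Without the repeated FVB array 5 mitophagy genes were lower, and the hypoxia list had 2 higher and 7 lower. With quantile normalisation the hypoxia list had 2 higher and 6 lower, and its median was -0.19. In these 6 lists, Egln1 at 13 weeks was the only gene called in either age comparison (0.85, limma adjusted p = 0.0311).

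The genes whose pattern over the 17 arrays was most like that of a family gene were found among 5692 other genes by the Pearson correlation of log2 signal, given as a description since the arrays share genotype and scaling. Bnip3 was closest to Plin4, a lipid droplet protein (r = 0.962), Selenbp1 (0.923) and Klhl21 (0.919). Mcl1 was closest to Smarca2, a chromatin remodeller (0.940), Tmed3 (0.939) and Arsa, a lysosomal sulphatase (0.934). Bcl2l1 was closest to Zbtb16 (0.922), Fbln2 (0.917) and Pip4k2c (0.888), and Bid to Synpo (0.956), Lcp2, a signalling adaptor of leukocytes (0.956), and the chemokine Cxcl5 (0.956). Bak1 was closest to Myh9 (0.852), Bcl2l2 to H2-Q10 (0.882), Bcl2 98870_at to Zfp444 (0.890) and Bad 161500_i_at to Htra2 (0.959). The repeated FVB array held the highest signal of Bcl2l2, Bcl2 98870_at and Bad 161500_i_at. Their likeness may rest on that array, and it was not computed without it.

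The 8 family genes form 28 pairs, of which 25 had a smaller absolute correlation within the 12 TNFTG arrays than over all 17 arrays and 12 had the opposite sign there. Over all 17 arrays the log2 signals of Bcl2l1 and Bid correlated at -0.843, of Bid and Bnip3 at -0.823, of Bcl2l1 and Bnip3 at 0.756 and of Mcl1 and Bcl2l1 at -0.708. Within the 12 TNFTG arrays the same pairs stood at -0.187, 0.115, -0.070 and -0.019. Some pairs differed less: Bak1 and Bnip3 stood at -0.711 over all arrays and at -0.604 within the TNFTG arrays, Bcl2l1 and Bad 161500_i_at at 0.633 and 0.530, and Bad and Bid at -0.489 and -0.510. Mcl1 and Bnip3 changed sign, with -0.538 over all arrays and 0.546 within the TNFTG arrays. These values carry no test, and 12 arrays of mixed age and sex leave them imprecise.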

How the data were processed

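Per the labels, total RNA of mouse heart was hybridised to Affymetrix U74Av2 arrays. The authors deposited 1 intensity per probe set, on a linear scale and already scaled, since every array had a mean of 499.2 to 499.9 once its lowest and highest 2% of values were trimmed. For software, background and scaling target the settings were not given in the sources used here. Groups came from the sample titles, and 2 identical columns were counted as 1 array, leaving 17 of 18.

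Signals under 44.9 (the 25th percentile) were set to that floor and taken as log2, and the brightest 60% of probe sets, 7453, went into 1 two-sided limma fit (lmFit, eBayes; version 3.58.1, R 4.3.3) of 6 group means by genotype, age and labelled sex, with 11 residual degrees of freedom. The 3-week effect averages the differences of both labelled sexes. Benjamini-Hochberg adjustment ran over all probe sets tested in a comparison. The floor shrinks log2 differences of groups with dim arrays. Gene symbols came from the platform annotation, which can be old, and RefSeq promoters from GRCm38.p6. For list genes with several probe sets, the one brightest by mean log2 signal stands for the gene.

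The members, the lists and the tests were chosen with earlier results of these data known. All family probe sets and all other BCL2 genes on the array are named. From every other list, up to 4 genes of smallest p and a few well known genes are named, and further genes that account for small counts were chosen after their values were seen. On simulated data of 7453 probe sets for the effect at 3 weeks, the fit recovered 83% of 100 probe sets changed by 1 log2 unit and 99% of 100 changed by 2. It also called 15 unchanged probe sets. The simulation had normal noise, no floor, no outlying array and 200 changed probe sets, where 3476 were called in the data. These shares are therefore not the power of the fit on the data. The number of arrays limits the precision. The alternatives tried were 2 scalings, another floor, log2 of signal plus 50, 2 filters, an intensity trend, array weights, other sample sets, the replicate number as a block and leaving out each array. List counts under these settings were added later.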

Additional observations from a re-analysis of the deposited data

Results flagged for a closer look

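In 4 of 23 groups of 4 to 10 arrays, 1 array of a family probe set lay farther from the rest than Dixon's 95% critical value allows, and chance flags about 1 in 20. All 4 are FVB arrays. On the array deposited as FVB female replicates 1 and 2, Bcl2 98869_g_at read 761.0 where the other FVB arrays ran at 185.4 to 316.3. On the same array Bad 99670_at read 348.9, above 170.4 to 216.3 on the other FVB arrays, and Bcl2l1 99026_at read 72.6, the only value of that probe set above the floor. The other FVB values of Bcl2l1 99026_at were set to the floor, so any single value above it would have been flagged. Flags on the same array are not separate events either, so the count is not a fair match for 1 in 20. On FVB male replicate 1, which carried both Xist and Y-linked signal, Bcl2l1 99027_at read 1966.4 where the other FVB arrays ran at 1471.9 to 1583.9. Leaving out any 1 array kept the Bcl2l1 log2 difference between -0.77 and -0.66.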

How the results depend on the processing

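Mcl1, Bcl2l1 99027_at and Bnip3 kept their direction and their call at 3 weeks under all 14 alternatives and with any 1 of the 17 arrays left out, with log2 differences of 0.50 to 0.73, -0.80 to -0.65 and -1.37 to -0.93. Bid was called wherever it was tested, at 0.55 with the floor at the 40th percentile and at 1.51 to 1.90 otherwise, and was not among the probe sets tested with the brightest 40%, with log2 of signal plus 50 or with quantile normalisation. Bak1 lost its call with array weights (0.48, adjusted p = 0.0668), without the repeated FVB array and without the 3 doubted FVB arrays. Bad 161500_i_at lost its call with array weights (-0.77, adjusted p = 0.104), with sexes pooled (-0.77, 0.0599), without FVB male replicates 1 and 2 (-0.87, 0.0533), without the repeated array (-0.66, 0.106) and without the 3 doubted arrays (-0.64, 0.164), beside -0.88 with all arrays. Bcl2l2 was called under 7 alternatives or left-out arrays, among them quantile normalisation (-0.49, adjusted p = 0.0179), and Bcl2 98870_at under 3, among them quantile normalisation (-0.44, adjusted p = 0.0355). The cause was not tested. Between 4 and 8 of the family probe sets were called under any setting.

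Some uncalled differences changed sign. At 3 weeks, Bcl2 98869_g_at was -0.045 with both identical columns kept and -0.38 to 0.63 with an array left out, the lowest without FVB female replicate 3 and the highest without the repeated array. Bad 99670_at was 0.046 without FVB male replicates 1 and 2, 0.27 without the 3 doubted arrays and -0.27 to 0.18 with an array left out. At 13 weeks, Bcl2 98869_g_at was -0.044 with array weights, -0.014 with a common median and -0.0080 with quantile normalisation. With an array left out at 13 weeks it ran at -0.13 to 0.077, Bad 161500_i_at at -0.035 to 0.47, Bad 99670_at at -0.10 to 0.23, Bak1 at -0.18 to 0.091, Bcl2 98870_at at -0.088 to 0.35, Bcl2l2 at -0.0085 to 0.18, Bid at -0.37 to 0.0024 and Mcl1 at -0.18 to 0.037. At 40 weeks, Bad 161500_i_at was -0.062 with array weights, -0.015 with a common median and -0.040 with sexes pooled, Bad 99670_at was -0.026 and Bid 0.14 with array weights. With an array left out at 40 weeks, Bad 161500_i_at ran at -0.31 to 0.40, Bad 99670_at at -0.078 to 0.17, Bak1 at -0.33 to 0.026 and Bid at -0.22 to 0.10.

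Counts over all probe sets moved in the small comparisons. At 13 weeks, 39 became 80 with array weights, 61 with the floor at the 40th percentile, 61 without the 3 doubted arrays and 14 to 68 with an array left out. At 40 weeks, 50 became 803 with array weights, 30 with the brightest 40%, 78 with the floor at the 40th percentile, 77 with no filter and 28 to 67 with an array left out. For the sex difference, 0 became 155 with both columns kept, 17 with a common median, 3 with the floor at the 40th percentile, 92 with no filter, 6 with quantile normalisation, 2 without FVB male replicates 1 and 2, and 0 to 1490 with an array left out, the 1490 without FVB female replicate 3, where 1 family probe set was called (0 to 1). The median log2 difference of the mitophagy list moved from -0.29 to -0.41 without the repeated array. The genes called in the death receptor list fell to 4 with the brightest 40%, where only 6 of its genes were tested, beside 10 in the main fit.

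The replicate numbers of the titles gave no sign of pairing, as the deviations of same-numbered arrays correlated at -0.19 to 0.24 with mixed signs. In groups this small the deviations from a group mean are tied to one another, so these values cannot exclude pairing. With the replicate number as a block the same 6 family probe sets were called, 3328 in all, and 2 of the other BCL2 family list.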
